A study of Mus musculus with 9 samples.

Results

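The Descemet membrane is the thick basement membrane on the inner face of the cornea, and the corneal endothelium is the single cell layer that makes it. The genes described here were chosen by name from the raw count table through their Ensembl mouse identifiers: the collagen VIII chain genes Col8a1 and Col8a2, the base transporter genes Slc4a11 and Slc4a4, the junction genes Tjp1 and Cdh2, and the repressor gene Zeb1. All 7 were found among the 35275 genes of the table, and all 7 passed the filter on low counts that left 15825 genes to test.

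RNA had been sequenced in bulk from the dissected anterior segment of newborn mouse eyes, which holds the cornea, iris, ciliary body and drainage tissue without the lens. The groups were 6 samples of Col4a1+/G1344D eyes, which carry 1 copy of a missense change in the chain encoded by Col4a1, a type IV collagen of basement membranes, and are called mutant here, and 3 samples of Col4a1+/+ eyes, called wildtype, all at postnatal day 0. Each sample pooled 4 eyes from 2 mice, so a p-value measures the spread between pools, and the labels give neither strain nor sex. The comparison asks which RNA levels differ between the genotypes at birth. Library totals ran from 25995340 to 35306935 counts.

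Collagen VIII is a short-chain collagen whose chains form a hexagonal lattice in the Descemet membrane, and mice that lack both chains have a thin membrane and an abnormal anterior segment. The endothelium keeps the cornea clear by pumping ions and base out of the stroma, with water following, while its junctions leave a controlled leak. In humans, variants of COL8A2, SLC4A11 and ZEB1 cause dystrophies of this cell layer, and loss of SLC4A4 function gives renal tubular acidosis with corneal clouding. Zeb1 is a zinc finger factor that binds E-box sequences and represses epithelial genes, while Tjp1 encodes the tight junction scaffold ZO-1 and Cdh2 encodes N-cadherin.

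The upstream windows of both collagen chains are shown because the chains differed in their response, with those of the called genes Tjp1 and Slc4a4 for comparison. Each holds the 250 bases before a RefSeq start on GRCm38.p6, 5′ to 3′ on the strand of the gene, and 4 of the 7 genes had an entry. Col8a1 lies at chr16:57754738-57754987 and Tjp1 at chr7:65371245-65371494, both on the minus strand, and Col8a2 at chr4:126286544-126286793 on the plus strand. The Tjp1 window lies inside the annotated span of the gene, 65296165 to 65527781, and the Tjp1 counts add up all 7 annotated transcripts. Slc4a4 has 2 listed starts on the plus strand, and its counts add up transcripts from both. The window of the downstream start, at chr5:89027716-89027965, is shown, while that of the upstream start lies in an annotated exon of another transcript and is not printed. Capitals mark the E-box letters CACCTG or CAGGTG and the GC box letters GGGCGG or CCGCCC, searched on both strands, and an E-box and a GC box share bases near the Col8a1 start.
Col8a1: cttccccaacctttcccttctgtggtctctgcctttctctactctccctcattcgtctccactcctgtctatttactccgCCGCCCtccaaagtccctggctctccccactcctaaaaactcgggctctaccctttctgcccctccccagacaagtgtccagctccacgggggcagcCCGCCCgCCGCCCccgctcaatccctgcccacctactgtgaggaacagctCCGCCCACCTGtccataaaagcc
Col8a2: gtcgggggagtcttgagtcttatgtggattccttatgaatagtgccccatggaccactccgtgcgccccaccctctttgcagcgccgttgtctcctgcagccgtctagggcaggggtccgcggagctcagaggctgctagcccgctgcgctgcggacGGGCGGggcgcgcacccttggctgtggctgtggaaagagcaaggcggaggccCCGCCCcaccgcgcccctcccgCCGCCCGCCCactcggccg
Tjp1: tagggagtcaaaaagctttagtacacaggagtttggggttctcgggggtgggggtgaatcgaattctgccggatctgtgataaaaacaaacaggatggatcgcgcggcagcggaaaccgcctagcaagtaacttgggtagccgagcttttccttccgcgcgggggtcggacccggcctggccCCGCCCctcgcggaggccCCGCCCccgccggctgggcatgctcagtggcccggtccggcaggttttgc
Slc4a4: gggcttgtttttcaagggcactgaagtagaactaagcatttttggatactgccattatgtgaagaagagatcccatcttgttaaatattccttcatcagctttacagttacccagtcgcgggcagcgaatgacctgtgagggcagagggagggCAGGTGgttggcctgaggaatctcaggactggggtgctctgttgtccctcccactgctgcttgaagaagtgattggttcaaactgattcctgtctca
The Col8a1 window held 1 E-box, whose first base lies 18 bases before the start, and 4 GC boxes, while the Col8a2 window held 0 E-boxes and 4 GC boxes. The Tjp1 window held 0 E-boxes and 2 GC boxes, and the Slc4a4 window shown held 1 E-box, 97 bases before the start, and 0 GC boxes. The other Slc4a4 window, at chr5:88887010-88887259, held the reverse, 0 E-boxes and 1 GC box. Over all 32851 windows of this length, 17.2% held such an E-box and 32.7% such a GC box. These matches are letters in a window and are not evidence that a factor binds there.

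Of the 7 genes, 4 were higher in the mutant and 0 lower (edgeR quasi-likelihood test, Benjamini-Hochberg adjusted p under 0.05 over all tested genes), where 9.7% of all tested genes were called higher and 9.47% lower, 19.2% in all. Tjp1, Col8a1, Cdh2 and Slc4a4 rose, and Zeb1, Slc4a11 and Col8a2 did not pass the test. The median log2 fold change of the 7 was 0.40, beside -0.0019 over all tested genes. For 3 of them every mutant library lay above every wildtype library, as it did for 10.8% of all tested genes, and 22% had no overlap in one direction or the other. Levels below are in CPM, the count scaled to a common library size with TMM factors.

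**Figure D1:**
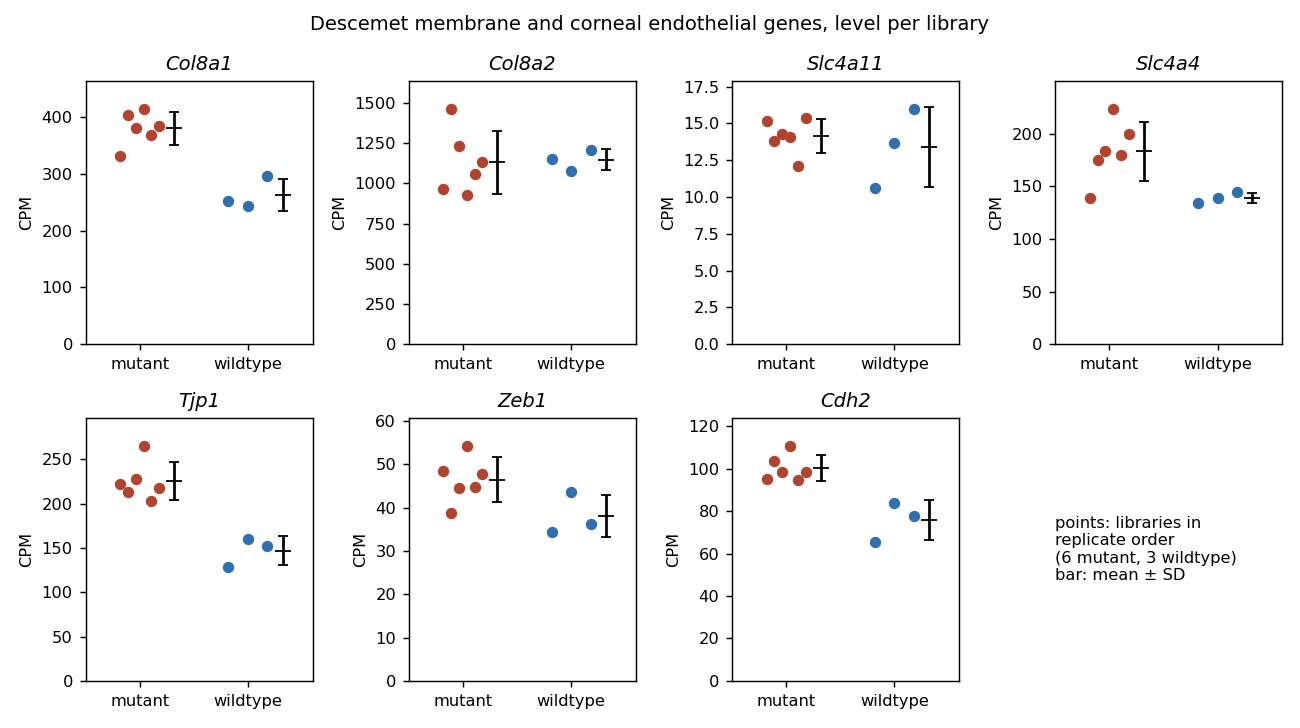
Level of each of the 7 genes in CPM, 1 point for each of the 6 mutant and 3 wildtype libraries, with the mean and SD as a bar. The mutant points of Col8a1, Tjp1 and Cdh2 all lie above the wildtype points, while those of Col8a2 and Slc4a11 overlap them.

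The collagen VIII chains differed in their response. Col8a1 (ENSMUSG00000068196, chromosome 16, 57624258 to 57754737 of GRCm38, minus strand) ran from 330.5 to 413 CPM in mutant libraries, with a median of 383 CPM, against 252, 242 and 295 CPM in wildtype 1 to 3. The groups did not overlap, and mutant 1 was the lowest of the mutant libraries. Col8a1 averaged 380 ± 29.2 CPM in the mutant (SD, n = 6) and 263 ± 28.2 CPM in wildtype (SD, n = 3), or 1.44-fold higher (edgeR adjusted p = 0.00203, log2 fold change 0.53 with SE 0.0895).

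Col8a2 (ENSMUSG00000056174, chromosome 4, 126286793 to 126314330, plus strand) was the most abundant of the 7. It ran from 928 to 1462 CPM in mutant libraries, with a median of 1096 CPM, against 1152, 1079 and 1210 CPM in wildtype 1 to 3. The wildtype values lie within the mutant range, whose top is mutant 2 and whose bottom is mutant 4. The means were 1131 ± 197 CPM in the mutant and 1147 ± 65.5 CPM in wildtype (SD, n = 6 and 3). The log2 fold change of -0.02 (SE 0.124, edgeR adjusted p = 0.931) had an unadjusted 95% interval from -0.28 to 0.24, so differences within those bounds are compatible with these data.

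The ratio of the chains within a library does not depend on library scaling. Per kilobase of annotated exon, the Col8a1 level was 0.196, 0.158, 0.177, 0.255, 0.199 and 0.195 of the Col8a2 level in mutants 1 to 6, against 0.126, 0.129 and 0.14 in wildtype 1 to 3. Every mutant ratio lay above every wildtype ratio, with the lowest in mutant 2 and the highest in mutant 4. The mean ratio was 0.197 ± 0.0327 in the mutant and 0.131 ± 0.00755 in wildtype (SD, n = 6 and 3). The log2 difference of 0.57, a fold of 1.48, had an exact two-sided permutation p of 0.0119 over 84 splits, the smallest they can give, and p = 0.0238 adjusted over the 2 ratios tested. The ratio was tested with the rise of Col8a1 already known. With a trend on exon length taken out of each library, an alternative added after the data had been seen, the log2 difference was 0.44.

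**Figure D2:**
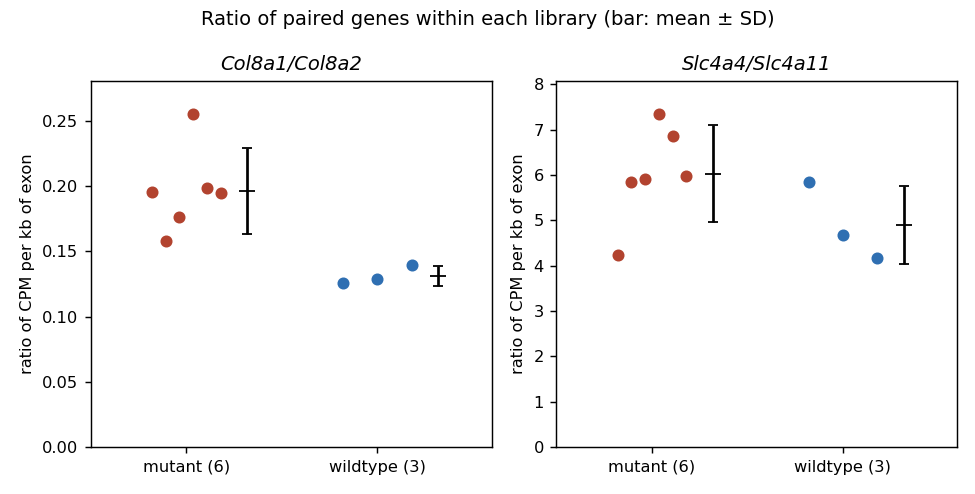
Ratio of CPM per kilobase of exon within each library, Col8a1 over Col8a2 on the left and Slc4a4 over Slc4a11 on the right, with the mean and SD as a bar. All 6 mutant Col8a1/Col8a2 ratios lie above the 3 wildtype ratios, and the Slc4a4/Slc4a11 ratios of the groups overlap.

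Of the transporters, Slc4a4 rose and Slc4a11 did not pass the test. Slc4a4 (ENSMUSG00000060961, chromosome 5, 88886818 to 89239653, plus strand) encodes an electrogenic sodium bicarbonate cotransporter. It ran from 139 to 223 CPM in mutant libraries, with a median of 181 CPM, against 134, 139 and 144 CPM in wildtype 1 to 3. Of the mutant libraries, 5 lay above all wildtype libraries, and mutant 1 lay inside their range. The means were 183 ± 27.98 CPM in the mutant and 139 ± 5.0 CPM in wildtype (SD, n = 6 and 3), or 1.32-fold higher (edgeR adjusted p = 0.0212, log2 fold change 0.40 with SE 0.111). Slc4a4 lost its call without wildtype 1 (log2 0.37, edgeR adjusted p = 0.119) or wildtype 3 (log2 0.43, edgeR adjusted p = 0.0577), with a length trend removed, as described below (log2 0.18, edgeR adjusted p = 0.154), and with a split of the libraries described below as covariate (log2 0.39, edgeR adjusted p = 0.0718).

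Slc4a11 (ENSMUSG00000074796, chromosome 2, 130684113 to 130697519, minus strand) encodes a transporter of protons and ammonia in the same family. It was the scarcest of the 7, with 394 to 504 counts in mutant libraries and 287, 365 and 444 counts in wildtype 1 to 3. Its level ran from 12.1 to 15.4 CPM in mutant libraries, with a median of 14.2 CPM, against 10.6, 13.7 and 16.0 CPM in wildtype 1 to 3. The wildtype libraries held both the lowest and the highest value of all 9. The log2 fold change was 0.07 (SE 0.141, edgeR adjusted p = 0.751), with an unadjusted 95% interval from -0.22 to 0.37.

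Per kilobase of exon, the Slc4a4 level was 6.03 ± 1.06 times that of Slc4a11 in the mutant and 4.91 ± 0.863 times in wildtype (SD, n = 6 and 3). The log2 difference of 0.29 did not pass an exact two-sided permutation test over 84 splits (p = 0.143, also after adjustment over the 2 ratios). Wildtype 1, at 5.86, and wildtype 2, at 4.69, lay inside the mutant range. Without mutant 1, whose ratio was 4.24, the log2 difference was 0.39 with an exact permutation p of 0.0179, the smallest that the remaining 8 libraries allow. There the groups were parted only by 5.857 in mutant 2 and 5.856 in wildtype 1. With any other library left out, the exact permutation p ran from 0.107 (without wildtype 1) to 0.464 (without wildtype 3, log2 difference 0.18).

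The junction genes both rose. Tjp1 (ENSMUSG00000030516, chromosome 7, 65296165 to 65527781, minus strand), whose product ties tight junction proteins to actin, ran from 203 to 265 CPM in mutant libraries, with a median of 220.2 CPM, against 128, 160 and 153 CPM in wildtype 1 to 3. The groups did not overlap, and mutant 4 was the highest. Tjp1 averaged 225 ± 21.3 CPM in the mutant and 147 ± 16.5 CPM in wildtype (SD, n = 6 and 3), or 1.53-fold higher (edgeR adjusted p = 0.00113, log2 fold change 0.62 with SE 0.0937), the largest rise of the 7.

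Cdh2 (ENSMUSG00000024304, chromosome 18, 16588877 to 16809246, minus strand), the cadherin of endothelial adherens junctions in the cornea, ran from 94.9 to 111 CPM in mutant libraries, with a median of 98.5 CPM. Wildtype 1 to 3 had 65.4, 84.01 and 77.7 CPM. The groups did not overlap, and wildtype 1 was the lowest library. The means were 100.3 ± 6.03 CPM in the mutant and 75.7 ± 9.48 CPM in wildtype (SD, n = 6 and 3), or 1.33-fold higher (edgeR adjusted p = 0.00682, log2 fold change 0.41 with SE 0.0890). Cdh2 lost its call without wildtype 1 (log2 0.31, edgeR adjusted p = 0.0660).

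Zeb1 (ENSMUSG00000024238, chromosome 18, 5591860 to 5775467, plus strand) did not pass the test. It ran from 38.8 to 54.2 CPM in mutant libraries, with a median of 46.3 CPM, against 34.4, 43.5 and 36.3 CPM in wildtype 1 to 3. All mutant libraries but mutant 2 lay above the highest wildtype library, wildtype 2. The log2 fold change was 0.29 (SE 0.110, edgeR adjusted p = 0.0772), and the gene was called without wildtype 2 (log2 0.40, edgeR adjusted p = 0.0346) or mutant 2 (log2 0.33, edgeR adjusted p = 0.0395). On the opposite strand the annotated gene Gm10125 shares 198 exonic bases with Zeb1, so reads there are uncertain while the strand setting of the counting is unknown.

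**Figure D3:**
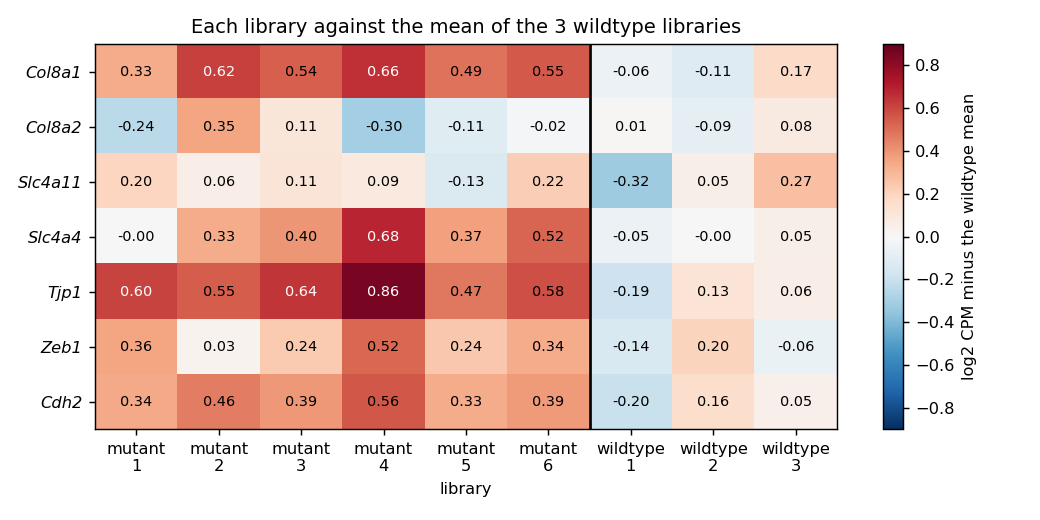
Each library's log2 CPM minus the mean of the 3 wildtype libraries, with mutant libraries 1 to 6 left of the line and wildtype 1 to 3 right of it. Mutant 4 has the highest value in the row of Col8a1, Slc4a4, Tjp1, Zeb1 and Cdh2 and the lowest in the row of Col8a2.

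The libraries fell into sets, the library split, by the share of counts on Gm42418, a locus that takes up ribosomal RNA reads. It held from 4.11% to 6.91% in mutants 1 and 3 to 6 and 4.54% in wildtype 1, and from 0.0663% to 0.0708% in mutant 2 and wildtype 2 and 3. Within the high set, the mean of 5 mutant libraries minus the 1 wildtype library was 0.57 for Col8a1, 0.82 for Tjp1, 0.60 for Cdh2 and 0.45 for Slc4a4 on the log2 CPM scale. Within the low set, the 1 mutant library minus the mean of 2 wildtype libraries was 0.59 for Col8a1, 0.45 for Tjp1, 0.36 for Cdh2 and 0.31 for Slc4a4, so these 4 kept their direction in both sets. Col8a2 was at -0.12 in the high set and 0.36 in the low set, Slc4a11 at 0.42 and -0.10, and Zeb1 at 0.47 and -0.03, so their direction differed. Neither set has replicates in both groups, so these differences carry no test.

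Long genes were higher in the mutant across the table, and the genes that rose here are long. Their merged exons span 10815 bases for Slc4a4, 8066 for Cdh2, 7833 for Col8a1 and 7811 for Tjp1, beside 10266 for Zeb1, 4998 for Slc4a11 and 4489 for Col8a2, against a median of 4242 bases over tested genes. Of the 1929 tested genes with 7500 to 11000 exon bases, a band set after seeing these lengths, 21% were called higher and 2.23% lower, with a median log2 fold change of 0.18. It holds 5 of the 7 genes, of which 4 were called higher. With a smooth trend on exon length removed from each library, Tjp1 (log2 0.47, edgeR adjusted p = 0.000906), Col8a1 (log2 0.38, edgeR adjusted p = 0.00444) and Cdh2 (log2 0.26, edgeR adjusted p = 0.0303) were still called higher. Slc4a4 was not, as given above, and Zeb1 stood at 0.09 (edgeR adjusted p = 0.585).

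**Figure D4:**
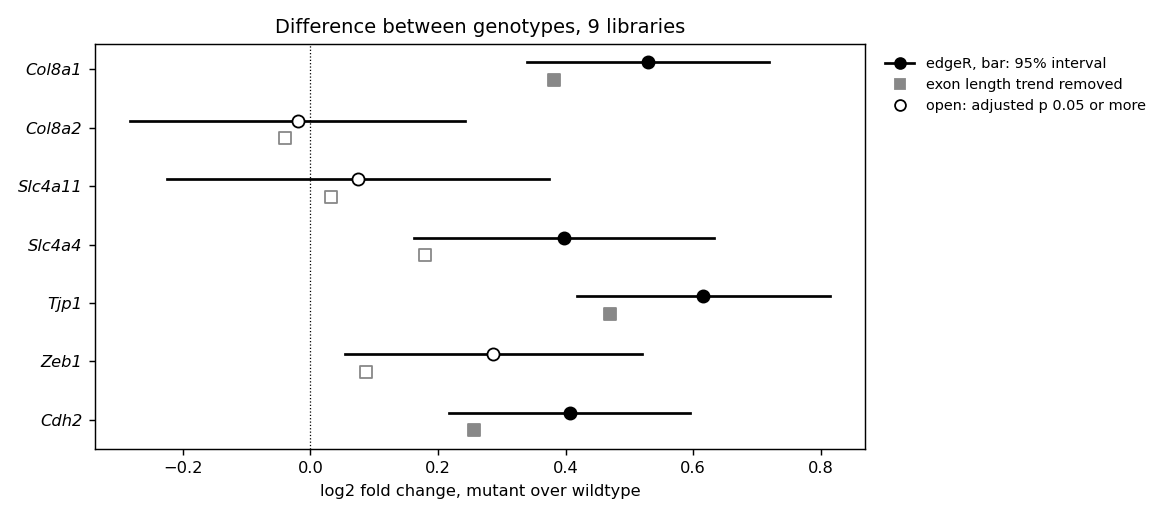
Log2 fold change, mutant over wildtype, of each gene in the fit over all genes, as a circle with its unadjusted 95% interval, and with the exon length trend removed, as a square, filled where the adjusted p is under 0.05. Tjp1, Col8a1 and Cdh2 are filled in both, and Slc4a4 only for the circle.

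On the level of CPM per kilobase of exon, the 7 genes kept the same order of means in both genotypes. In the mutant the level was 252 ± 43.8 for Col8a2, 48.5 ± 3.73 for Col8a1, 28.8 ± 2.73 for Tjp1, 16.9 ± 2.59 for Slc4a4, 12.4 ± 0.747 for Cdh2, 4.53 ± 0.499 for Zeb1 and 2.83 ± 0.235 for Slc4a11 (SD, n = 6). In wildtype it was 256 ± 14.6 for Col8a2, 33.6 ± 3.59 for Col8a1, 18.8 ± 2.11 for Tjp1, 12.9 ± 0.462 for Slc4a4, 9.38 ± 1.18 for Cdh2, 3.71 ± 0.466 for Zeb1 and 2.68 ± 0.540 for Slc4a11 (SD, n = 3). Neighbours in this order did not overlap within either genotype, except Slc4a4, from 12.8 to 20.6, and Cdh2, from 11.8 to 13.7, in the mutant. The merged exon length covers all annotated transcripts of a gene, so a gene with many transcripts reads low on this scale.

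The label of these genes was checked against 7 markers of the corneal endothelium. Since 3 of the 7 markers are Col8a1, Col8a2 and Slc4a11 themselves, the others, Alcam, Cd200, Ncam1 and Nt5e, are the markers not already described, and none of these is made by the endothelium alone. All 7 had counts, and their summed level ran from 1575 to 2129 CPM in mutant libraries and from 1579 to 1767 CPM in wildtype libraries, most of it Col8a2. Among the others, Ncam1, a neural cell adhesion molecule gene, rose (43.4 CPM in the mutant and 33.2 CPM in wildtype, edgeR adjusted p = 0.0271). Alcam had 128 CPM in the mutant and 106 CPM in wildtype (edgeR adjusted p = 0.0553). Cd200 had 43.9 CPM in the mutant and 41.7 CPM in wildtype (edgeR adjusted p = 0.598), and Nt5e 51.2 CPM in the mutant and 55.0 CPM in wildtype (edgeR adjusted p = 0.558). In bulk tissue, fewer cells of a type and less RNA per cell cannot be told apart.

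Tjp1, Cdh2 and Slc4a4 are also made by other cells of the anterior segment, and markers of some of these moved. Beside the marker counts here and in the next paragraph, 9.7% of all tested genes were called higher and 9.47% lower. Of 7 blood vessel endothelium markers, 6 rose and 0 fell, with a summed level from 617 to 738 CPM in mutant libraries and from 448 to 526 CPM in wildtype libraries. Of 5 keratocyte markers, 4 fell and 0 rose, with sums from 3538 to 4953 CPM in mutant libraries and from 4991 to 7016 CPM in wildtype libraries. Of 6 pericyte and smooth muscle markers, 2 rose and 3 fell, with sums from 1048 to 1149 CPM in the mutant and from 1215 to 1354 CPM in wildtype. Of 6 surface epithelium markers, 1 rose and 0 fell, with sums from 7169 to 8440 CPM in the mutant and from 7523 to 8470 CPM in wildtype. Of 6 markers of retina and ciliary neuroepithelium, 0 rose and 0 fell, with sums from 269 to 289 CPM in the mutant and from 270 to 299 CPM in wildtype (edgeR). Their part in the rises of Col8a1, Tjp1, Cdh2 and Slc4a4 was not tested, and bulk counts do not tell which cells made the RNA of any of the 7 genes.

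Of the remaining marker lists, 1 of 8 lens markers, of which 5 were tested, fell, with sums from 36.4 to 43.5 CPM in the mutant and from 48.8 to 55.9 CPM in wildtype and with Lim2 at 0 counts. Of 6 pigment cell markers, 0 were called, with sums from 13720 to 15410 CPM in the mutant and from 15480 to 16170 CPM in wildtype. Of 5 macrophage markers 3 rose, and of 6 red cell markers 4 rose, with red cell sums from 1796 to 8785 CPM in the mutant and from 533 to 939 CPM in wildtype. Macrophage sums ran from 232 to 341 CPM in the mutant and from 143 to 152 CPM in wildtype. Of 3 Schwann cell and 6 skeletal muscle markers, 0 were called, with Schwann cell sums from 55.9 to 76.6 CPM in the mutant and from 56.4 to 78.1 CPM in wildtype, and skeletal muscle sums from 2.78 to 10.7 CPM in the mutant and from 2.73 to 5.92 CPM in wildtype.

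Most of the listed other genes of the Descemet membrane matrix rose. Of 23 listed and tested, 18 rose and 1 fell, and the median of the list was 0.55 on the log2 scale. For counts from the main edgeR fit, here and in later lists, the shares of all tested genes are the 9.7% and 9.47% given above. Counts from other fits have a different background. Of 16159 genes tested with wildtype 1 left out, 303 rose and 235 fell. Of 16166 tested with wildtype 3 left out, 849 rose and 820 fell. By limma-voom, 2359 of 15825 rose and 2335 fell, and by DESeq2 1968 rose and 1817 fell. With the length trend removed 910 rose and 1235 fell, and with the library split as covariate 938 rose and 939 fell. Hspg2, the gene of the heparan sulfate proteoglycan perlecan, rose 1.99-fold to 485 ± 99.7 CPM in the mutant, against 243 ± 39.9 CPM in wildtype (edgeR adjusted p = 0.00115). Fn1, the fibronectin gene, rose 1.90-fold (edgeR adjusted p = 0.00153), the mutated gene Col4a1 1.65-fold and its partner Col4a2 1.596-fold, all with no overlap between the groups. Long genes were higher across the table, as given above, and the counts of this list are not corrected for that. Merged exons span 14307 bases for Hspg2, 11685 for Fn1, 7464 for Col4a1 and 6619 for Col4a2. The median over tested genes was 4242 bases. Dcn spans 5838 bases, Bgn 6099 and Sparc 3788. Hspg2, Fn1, Col4a1 and Col4a2 kept their calls with the length trend removed. Dcn, a small proteoglycan gene of the stroma, was the member that fell, 1.35-fold (edgeR adjusted p = 0.0198), named after its value was seen. Bgn, a related proteoglycan gene, and Sparc, a collagen-binding matrix gene, did not pass the test and were also named after their values were seen. Bgn had 1555 CPM in the mutant and 1548 CPM in wildtype, and Sparc 4975 CPM in the mutant and 5812 CPM in wildtype. When wildtype 1 was left out, 14 of the 23 rose and 0 fell (edgeR), so Dcn lost its call. Many of these genes, Col4a1, Col4a2, Hspg2 and Fn1 among them, are also made by vessels, and Dcn by keratocytes. The summed vessel markers, at 617 to 738 CPM in mutant libraries and 448 to 526 CPM in wildtype libraries, were higher beside the list with no overlap, and 4 of 5 keratocyte markers fell beside Dcn. Their part in the changes of this list was not tested.

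Of 21 genes of the endothelial pump and transport, 20 were tested, 6 rose and 1 fell, and the median of the list was 0.13 on the log2 scale. Aqp1, the water channel gene of the corneal endothelium and of keratocytes, was the member that fell, with 547 ± 74.4 CPM in the mutant and 822 ± 74.0 CPM in wildtype (SD, n = 6 and 3), a fall of 1.503-fold (log2 -0.59, edgeR adjusted p = 0.00302). All mutant libraries lay below all wildtype libraries, and the call was kept with each of the 9 libraries left out in turn. The keratocyte markers given above fell beside it, and their part was not tested. Slc12a2, the sodium-potassium-chloride cotransporter gene, rose 1.26-fold. With either wildtype 1 or wildtype 3 left out, 1 pump gene rose and 1 fell, with the library split as covariate 3 rose, and by DESeq2 or limma-voom 2 fell. Slc12a2 lost its call without wildtype 1 or wildtype 3, and also with the length trend removed or the library split as covariate.

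Of 24 other junction genes, 5 rose and 0 fell, and the median of the list was 0.18 on the log2 scale. By limma-voom 10 rose, and with the length trend removed 4 rose and 1 fell. Vcl, the gene of the actin linker vinculin, rose 1.37-fold to 130 ± 8.26 CPM in the mutant, against 95 ± 6.12 CPM in wildtype (edgeR adjusted p = 0.00237). Cldn11, a claudin gene, rose 1.67-fold, the plakoglobin gene Jup 1.34-fold and the cadherin gene Cdh11 1.22-fold. Ocln and Gja1, the genes of occludin and of the gap junction protein connexin 43, did not pass the test and were named after their values were seen. Ocln had 19.1 CPM in the mutant and 17.1 CPM in wildtype, and Gja1 2072 CPM in the mutant and 2083 CPM in wildtype. When wildtype 1 was left out 1 of the 24 rose, and when wildtype 3 was left out 3 did, while Cldn11, Jup and Cdh11 lost their calls without wildtype 1 and Cdh11 also without wildtype 3, with the length trend removed or with the library split as covariate.

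The repressors related to Zeb1 moved in both directions, with 2 of 5 higher and 2 lower and a median log2 fold change of 0.11. With the length trend removed 1 rose and 1 fell. Zeb2, the close relative of Zeb1, rose 1.35-fold (edgeR adjusted p = 0.0261) and Snai1 1.36-fold (edgeR adjusted p = 0.0298). Twist1 fell 1.43-fold, with 56.5 ± 7.72 CPM in the mutant and 80.5 ± 8.46 CPM in wildtype (edgeR adjusted p = 0.00587), and Twist2 fell 1.67-fold (edgeR adjusted p = 0.00943). All 4 lost their calls without wildtype 1, Zeb2 and Snai1 also without wildtype 3, Zeb2 without mutant 6 and Snai1 without mutant 3. Twist1 and Zeb2 lost theirs with the length trend removed, and Zeb2 with the library split as covariate.

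Of 12 epithelial genes that Zeb1 is known to repress in other cells, 1 rose and 0 fell, and the median was 0.14 on the log2 scale. By DESeq2 and by limma-voom 3 rose. The gene that rose by edgeR was Esrp1, an epithelial splicing factor gene, up 1.303-fold (edgeR adjusted p = 0.00774), which lost its call without wildtype 1. Cdh1, the E-cadherin gene, had 153 ± 12.4 CPM in the mutant and 126 ± 19.6 CPM in wildtype (edgeR adjusted p = 0.0574), and was called higher by DESeq2 and by limma-voom. Grhl2 had 24.3 CPM in the mutant and 19.0 CPM in wildtype (edgeR adjusted p = 0.0722) and was likewise called by both. Crb3 had 5.17 CPM in the mutant and 6.75 CPM in wildtype and did not pass the test.

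Of 11 genes of corneal endothelial dystrophy and development, 8 were tested, 2 rose and 0 fell, and the median was 0.18 on the log2 scale. By limma-voom 4 rose. Tcf4, the gene that carries the repeat of the common human form of Fuchs dystrophy, rose 1.28-fold to 201 ± 14.3 CPM in the mutant, against 156 ± 13.3 CPM in wildtype (edgeR adjusted p = 0.00774). Tfap2b, a neural crest factor gene needed for the mouse corneal endothelium, rose 1.19-fold (edgeR adjusted p = 0.0424). Both lost their calls without wildtype 1 and with the length trend removed, and Tfap2b also without wildtype 3 or mutant 2, 3, 5 or 6, and with the library split as covariate. Foxc1 had 131 CPM in the mutant and 102 CPM in wildtype, and Grhl1 30.7 CPM in the mutant and 25.8 CPM in wildtype, and neither passed the test.

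**Figure D5:**
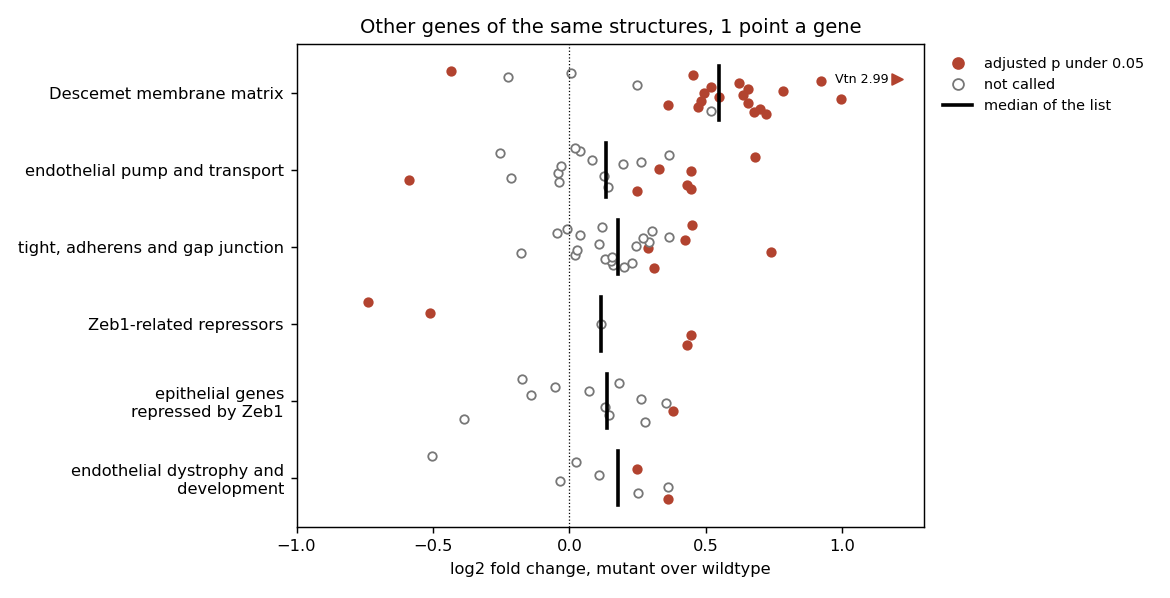
Log2 fold change, mutant over wildtype, of the other genes of the same structures and regulators, 1 point a gene, filled where the adjusted p is under 0.05, with the median of each list as a bar. The Descemet membrane matrix list has its median at 0.55 and the other lists between 0.11 and 0.18, and Vtn, at 0.905 CPM in the mutant and 0.110 CPM in wildtype, lies beyond the axis.

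The genes whose profile lay nearest to each of the 7 were found among 11287 tested genes of at least 5 CPM, by the root mean square difference of log2 CPM over the 9 libraries, each gene centred on its own mean. Col8a1 was nearest to Cmtm4, at 0.06, and Ddx6, at 0.08, and Col8a2 to Pltp, a phospholipid transfer protein gene, at 0.05, and Hmces, at 0.08. Slc4a11 was nearest to Csf1r, a macrophage receptor gene, at 0.07, and Nufip2, at 0.09, and Slc4a4 to Ralgps2, at 0.05, and Pi4ka, at 0.06. Tjp1 was nearest to Snrnp200 and to the laminin chain gene Lamc1, both at 0.05, Zeb1 to Ercc4, at 0.05, and Sf3b3, at 0.06, and Cdh2 to Rere, at 0.03, and Prdm11, at 0.04. None of these 14 was another of the 7 genes. The genes share libraries and library depth, so likeness on this measure is a description.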

How the data were processed

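The authors deposited raw read counts, not normalized, for each Ensembl gene in 1 column per sample. The genome build was GRCm38 and the tools DESeq2 1.6.3, HTSeq 0.6.1 and STAR 2.6.1, per the submitters' processing notes, which say nothing of what each did. The strand setting and the annotation release are not given in the sources here. Symbols, positions and exon lengths came from GENCODE for GRCm38, which held 34490 of the 35275 identifiers, and promoter windows from RefSeq. The share of counts on identifiers with no symbol was 0.0587% to 0.069%.

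The test was edgeR 4.0.16 in R 4.3.3, with TMM scaling, its default filter, robust quasi-likelihood estimates over all 9 libraries, and genotype as the only term. P-values were adjusted by Benjamini-Hochberg over 15825 genes and called at 0.05. CPM uses TMM library sizes. Ratios were tested by exact permutation over 84 splits. Alternatives were RLE and upper quartile scaling, DESeq2 1.42.0, limma-voom 3.58.1, and other filters and thresholds. All limma-voom values come from a fit with quality weights for the libraries. Further alternatives were smooth trends on exon length and GC content (mgcv 1.9.3), and a split at 1% of counts on Gm42418. A replicate block and leaving out each library were also run. The edgeR fit, but not the ratio test, was also run on simulated counts with known folds. These held no length trend and no library split, so they do not bear on either. The libraries within each genotype differed beyond counting noise (chi-square of counts, at least 15.6 per degree of freedom).

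The genes and lists were chosen with earlier results of these data known. The genes named are the 7, up to 4 genes of lowest p in each list and the 2 nearest profiles of each of the 7, and others are marked as named after their values were seen. Some genes that this rule takes are not reported here.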

Additional observations from a re-analysis of the deposited data

Results flagged for a closer look

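Among 47 sets of mutant values examined for a library far from the rest (the named genes and both ratios), 4 had a highest or lowest library whose gap to the nearest other, as a share of the range of the 6, exceeded Dixon's critical value, which happens in about 5% of sets by chance. Mutant 4 was the highest for Hspg2, at 676 CPM with the nearest mutant at 484 CPM, and for Lamc1, at 679 CPM with the nearest at 551 CPM. Mutant 1 was the lowest for Grhl1, at 26.2 CPM with the nearest at 30.3 CPM. Mutant 2 was the highest for Hmces, at 16.8 CPM with the nearest at 13.2 CPM. None of the sets of the 7 genes themselves was so marked.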

How the results depend on the processing

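Tjp1 and Col8a1 were called higher under every alternative run, and Cdh2 under each except leaving out wildtype 1. With 1 library left out in turn, the number of the 7 genes called higher ran from 2 to 5, and log2 fold changes from 0.53 to 0.68 for Tjp1, 0.48 to 0.62 for Col8a1, 0.31 to 0.49 for Cdh2, 0.34 to 0.47 for Slc4a4, 0.22 to 0.40 for Zeb1, -0.069 to 0.22 for Slc4a11 and -0.11 to 0.034 for Col8a2. Slc4a4 was not called at a threshold of 0.01 (0.40), with the length trend removed (0.18), with length and GC trends removed (0.17), with the Gm42418 split as covariate (0.39), with the replicate block (0.25) or in the same 6 libraries without the block (0.26). Zeb1 was called by limma-voom (0.28) and at a threshold of 0.1 (0.29). Slc4a11 changed sign by limma-voom (-0.069), and Col8a2 with the split as covariate (0.092), with the replicate block (0.077) and in those 6 libraries without it (0.095), without a call in any of these.

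Over all genes, 1535 were called higher and 1499 lower, against 2359 and 2335 by limma-voom, 520 and 512 at a threshold of 0.01, 938 and 939 with the split, 787 and 660 with the replicate block, and 857 and 733 in the same 6 libraries without it. With the length trend removed 910 were called higher, and 948 with length and GC removed. Leaving out 1 library gave 303 to 1688 higher and 235 to 1577 lower, the lowest without wildtype 1. Over all pathway lists, 34 genes were called higher, 18 of them in the Descemet membrane matrix list, and 4 lower. At a threshold of 0.01, 20 were called higher, and with the length trend removed 26. Leaving out 1 library gave 16 to 38 higher and 1 to 5 lower.

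The log2 difference of the Col8a1/Col8a2 ratio ran from 0.49 to 0.63 with 1 library left out and was 0.42 within replicate numbers (replicate block), where 3 pairs cannot give an exact p under 0.25. That of Slc4a4/Slc4a11 ran from 0.18 to 0.43 with 1 library left out. Same-numbered libraries correlated in their deviations from the group means at 0.09, 0.03 and -0.10, so the numbers were not taken as pairs. Of 874 values of the other 38 named genes, 754 kept their direction and side of the threshold, 93 lost a call, 19 gained one and 8 changed sign, all 8 of Pltp and Hmces. Pltp was at 0.062 with the length trend removed, 0.047 with length and GC removed, 0.063 with the split, 0.039 with the replicate block and 0.050 without it in 6 libraries, and from -0.10 to 0.012 with 1 library left out, and Hmces from -0.020 to 0.13. The causes were not tested. Slc4a11 had 287 to 504 counts a library. Its unadjusted 95% interval, from -0.22 to 0.37 on the log2 scale, bounds the differences compatible with these data.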
